A study of Mus musculus with 2 samples.

Results

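Phase II conjugation enzymes were taken as the protein-coding genes whose symbols begin with Ugt, Sult or the class letters of the cytosolic and mitochondrial Gst genes, each followed by a number. The rule found 65 members among the 54532 genes of the FPKM table. They comprised 22 Ugt genes, 21 Sult genes and 22 Gst genes. The libraries came from macrophages of the aorta, sorted on the surface proteins F4/80 and CD11b, of male ApoE-/- mice on the C57BL/6J background, with an age of 6 weeks in the labels, which do not say whether this is the age at the start or at sampling. Both groups lack functional apolipoprotein E by genotype. The PDR group (Phlegm-Dampness Retention syndrome) had 4 weeks of high-fat diet. The SKYD group (spleen-kidney yang deficiency syndrome) was given propylthiouracil, an antithyroid drug, by gavage at 10 mg/kg per day for 4 weeks and then 2 weeks of high-fat diet. Each group was 1 library pooled from 5 mice, so no difference below has a replicate check, and syndrome, drug, diet time and total time cannot be told apart.

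Phase II enzymes attach a polar group to drugs, pollutants, hormones and lipid products, which makes them easier to excrete. UDP-glucuronosyltransferases (UGT) work in the endoplasmic reticulum and most use UDP-glucuronic acid, while sulfotransferases (SULT) of the cytosol use the sulfate donor PAPS. Glutathione S-transferases (GST) join glutathione to electrophiles, including the aldehydes that form when lipids are oxidized. The liver holds much of the activity of UGT and SULT enzymes, whereas several GST genes are read in most cell types, macrophages included. Glucuronidation and sulfation are also routes by which thyroid hormones are inactivated.

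The number of reads on each gene was recovered from FPKM, since FPKM times gene length came in whole multiples of what 1 read is worth. Within a tolerance of 0.01 read, 100% of values above 0 were whole in both libraries. The sum was 23086889 reads for PDR and 25427863 for SKYD. A count of 0 allows up to 3 reads, which is 1.30e-05% of the PDR reads and 1.18e-05% of the SKYD reads. Differences are given as log2(FPKM + 1) in PDR minus that in SKYD, a scale that understates the change of genes with low values. Intervals are exact (Clopper-Pearson) 95% intervals of the split of a gene's reads between the libraries, and cover counting error only. Of 15 macrophage markers none was at 0 reads and 15 passed a mean FPKM of 1, so genes of the labelled cell type were present in both libraries. Genes of other blood cells were present too, and the T cell list alone had 10355 reads in PDR and 70326 in SKYD. Apoe itself had 17336 reads in PDR and 3618 in SKYD. Whole-gene values do not show whether these reads lie in the part that the knockout deletes.

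Most of the members with enough signal had the higher value in the PDR library, while Sult1a1 and Gsto1, both abundant, had the higher value in SKYD. Of the 65 members, 46 had reads in at least 1 library, 19 had none in either, and 28 reached a mean FPKM of 1 over both libraries and are called tested. Of these 28, 8 were more than 2-fold higher in PDR, namely Ugt2b1, Ugt2b5, Ugt2a3, Ugt3a2, Gstt1, Gstt2, Gsta2 and Gsta3. Over all genes tested that share was 7.38%, and over protein-coding genes 6.16%, against 28.6% of these members. Sult1a1 was the 1 member more than 2-fold higher in SKYD, where the shares were 6.91% of all genes and 5.38% of protein-coding genes. On shares of recovered reads, for genes with at least 10 reads, 24 of 44 members passed 2-fold toward PDR and 4 toward SKYD (Sult1a1, Sult1e1, Sult4a1 and Ugt1a6a), against 15.5% and 17.3% of all genes. On log2(FPKM + 1) no tested member differed by more than 4-fold, while 1.87% of all genes tested passed it toward PDR and 2.08% toward SKYD. This count depended on the pseudocount, since with 0.1 in place of 1, a setting chosen after seeing the data, Ugt3a2, Gsta2, Ugt2a3 and Ugt2b1 passed 4-fold toward PDR, 4 of 28 members against 3.80% of all genes. The median difference of the 28 members was 0.62, and that of the 10399 genes tested was -0.0035. With 6 of the 28 members below an FPKM of 1 in SKYD and 1 below it in PDR, these had passed through their higher library and their difference followed in part from that. Ugt3a2, Gsta2 and Ugt2a3 were among these 6, so the calls toward PDR past 2-fold, and past 4-fold with a pseudocount of 0.1, rest in part on the filter. Over the 46 members with reads, 33 had the higher FPKM in PDR and 13 in SKYD, and the intervals of 7 held 0. Without a filter on FPKM their median difference was 0.47, and that of 21718 genes was -0.034. Of these 46 members, 9 passed 2-fold toward PDR and 1 toward SKYD, against 3.94% and 3.92% of all genes.

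**Figure D1:**
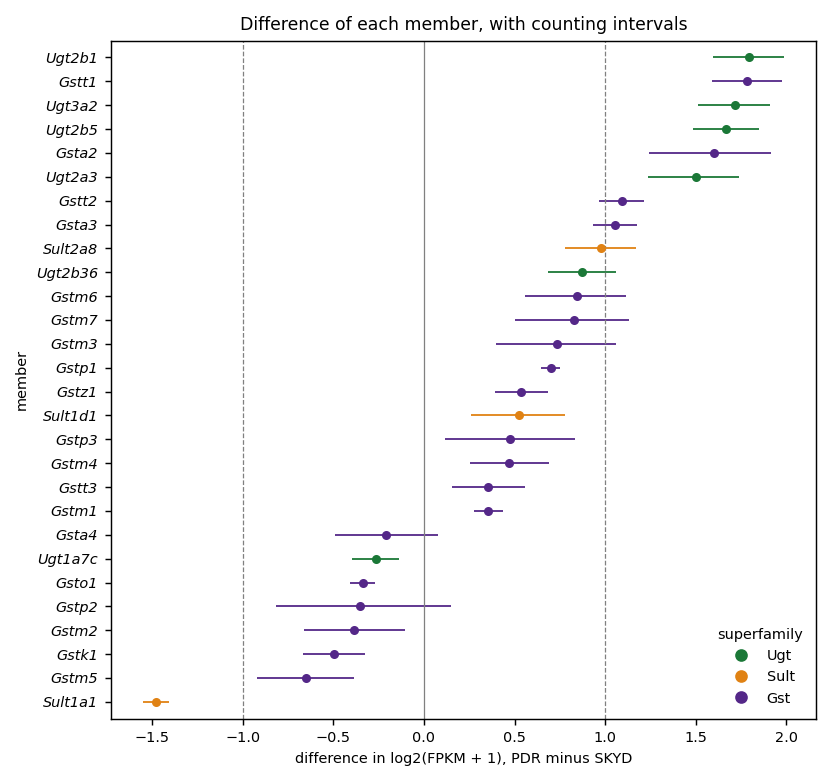
Difference in log2(FPKM + 1), PDR minus SKYD, of the 28 tested members, with 95% counting intervals; dashed lines mark a 2-fold difference and colours the superfamily. The intervals cover counting error only, and those of Gsta4 and Gstp2 lie across 0.

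Genes of hepatocytes were higher in PDR too. Of 25 hepatocyte markers, 24 were tested, and 23 of them were more than 2-fold higher in PDR on the log2(FPKM + 1) scale. Their median difference was 1.82, in a range from 0.98 to 2.17. Of the 28 tested members, 9 lay in that range, among them all 8 that passed 2-fold toward PDR. The range starts just under a 2-fold difference and ends past a 4-fold one, and no member passed 4-fold. Each member called toward PDR therefore had to lie in it, and the overlap tells nothing of the source. Of all genes tested, 7.38% passed 2-fold toward PDR and 1.87% passed 4-fold. The list summed to 97263 reads in PDR and 29069 in SKYD, which was 0.421% and 0.114% of reads. Apoa2 was the most abundant by FPKM in both libraries, at 793 in PDR and 294 in SKYD, and none of the list was at 0. Of 15 macrophage markers, 5 were more than 2-fold higher in SKYD, among them Cd14 and C1qa, none passed 2-fold toward PDR and 10 passed in neither direction, with a median of -0.64. Adgre1, the gene of F4/80, had a difference of -0.10 (-0.14 to -0.05), and Itgam, the gene of CD11b, one of -0.64 (-0.74 to -0.54). The higher FPKM was in SKYD for 11 of the 15 markers and in PDR for 4, at most 0.54 on the log2(FPKM + 1) scale, for Fcgr1. That list held 3.43% of reads in PDR and 6.34% in SKYD, mostly on Lyz2, its most abundant gene. In pooled samples, fewer cells of a type and less RNA per cell cannot be told apart. The part of hepatocyte or macrophage RNA in the members' differences was not tested.

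**Figure D2:**
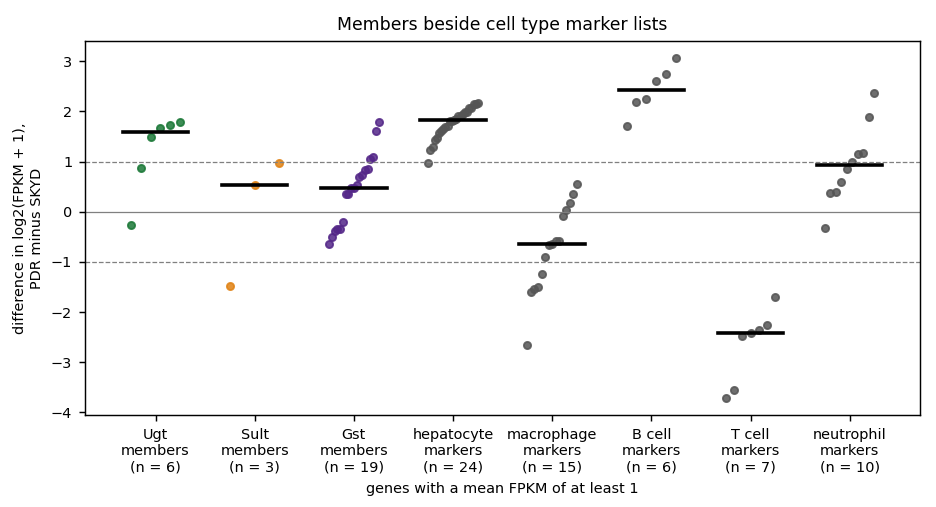
Difference in log2(FPKM + 1), PDR minus SKYD, of tested members and tested marker genes; each point is a gene, black bars are medians and dashed lines mark 2-fold. The 6 tested Ugt members spread from -0.27 to 1.79, with a median of 1.58 (0.67 over the 16 with reads). The Gst members spread from -0.65 to 1.78, and the median of the hepatocyte markers was 1.82.

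The 22 Ugt genes had 3488 reads in PDR, or 0.0151% of the library (0.0146 to 0.0156). In SKYD they had 1699 reads, or 0.00668% (0.00637 to 0.00701). As a share of reads the fold was 2.26 (2.13 to 2.40), higher in PDR, and it was 3.71 without Ugt1a7c, the member with the most reads. The median difference of the 6 tested Ugt members was 1.58, and without a filter on FPKM that of the 16 with reads was 0.67. Families within the superfamily differed: Ugt2 and Ugt3 genes were higher in PDR, and the Ugt1 genes together were near equal. Most Ugt1 reads were on Ugt1a7c, whose value is uncertain as a measure of that gene. Among the other Ugt1 genes, Ugt1a1 and Ugt1a9 were higher in PDR beyond counting error, and Ugt1a6a was higher in SKYD.

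Ugt2 enzymes conjugate steroid hormones, bile acids and fatty acids, and are best known from the liver and gut. The 10 genes had 2315 reads in PDR and 745 in SKYD, a fold of 3.42 (3.15 to 3.72) as a share of reads. All 8 with reads had the higher FPKM in PDR. Ugt2b5 was the most abundant of them in PDR, with 802 reads and an FPKM of 18.4, against 237 reads and 5.10 in SKYD. Its difference was 1.67 (1.48 to 1.85). Ugt2b36 stood close to it in SKYD, with an FPKM of 10.4 from 505 reads in PDR and 5.25 from 270 reads in SKYD. The difference of Ugt2b36 was 0.87 (0.69 to 1.06), short of 2-fold on the log2(FPKM + 1) scale. Ugt2b1 had a difference of 1.79 (1.60 to 1.99), the largest of the 28 members on that scale, though by FPKM ratio it came after Ugt3a2, Gsta2 and Ugt2a3. It had 615 reads and an FPKM of 10.2 in PDR, and 143 reads and 2.22 in SKYD. Ugt2a3 had 197 reads in PDR, an FPKM of 3.96, and 40 in SKYD, an FPKM of 0.756, with a difference of 1.50 (1.24 to 1.74). Below a mean FPKM of 1, Ugt2b34 had 117 reads in PDR and 41 in SKYD, Ugt2b38 had 43 and 10, and Ugt2b35 had 35 and 4. Ugt2b37 had 1 read in PDR and 0 in SKYD, and Ugt2a1 and Ugt2a2 had none.

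Ugt3 enzymes differ from the Ugt1 and Ugt2 families in their sugar donor, since they do not rely on UDP-glucuronic acid. Ugt3a2 had 331 reads and an FPKM of 4.54 in PDR, and 53 reads and 0.684 in SKYD. Its difference was 1.72 (1.51 to 1.91), and the FPKM ratio without a pseudocount was 6.65 (4.96 to 9.06). Ugt3a1, its neighbour on chromosome 15, had 88 reads in PDR and 0 in SKYD. Set against 3 reads in SKYD, Ugt3a1 was 31.2-fold higher in PDR, a value that leaves out the counting error of its own reads. Its mean FPKM of 0.702 kept it out of the count above. Ugt8a, which makes the galactosylceramide of myelin, had no reads in either library.

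Ugt1 genes share their last exons and differ in the first, so a read in the shared part cannot be assigned to 1 gene. Ugt1a1, the enzyme of bilirubin glucuronidation, had 56 reads in PDR and 10 in SKYD, an FPKM ratio of 5.96 (3.01 to 13.1). Ugt1a9 had 30 reads in PDR and 8 in SKYD, a ratio of 3.99 (1.79 to 10.1). Both therefore went with the Ugt2 genes. Ugt1a6a, of the phenol-conjugating pair with Ugt1a6b, went the other way, with 3 reads in PDR and 17 in SKYD and a SKYD to PDR ratio of 5.33 (1.54 to 28.4). Ugt1a6b had 13 and 8 reads, with an interval of the ratio that held 1. Ugt1a7c took most reads of the family, 652 in PDR and 856 in SKYD. Its FPKM was 6.58 in PDR and 8.12 in SKYD, with a difference of -0.27 (-0.40 to -0.14). In the reference annotation, Ugt1a7c has 1915 exon bases outside the exons of other genes, of which 998 lie past the end of every other Ugt1a gene. Reads of any Ugt1a transcript that runs that far would be counted on Ugt1a7c, so its value is uncertain as a measure of this gene. Ugt1a5 had 0 and 2 reads, and Ugt1a2, Ugt1a8 and Ugt1a10 had none.

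**Figure D3:**
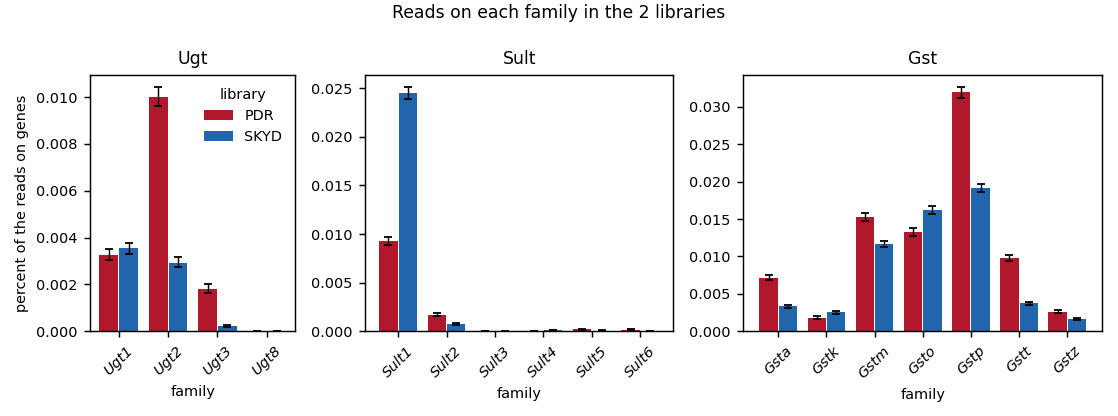
Percent of the reads on genes that fell on each family in the PDR and SKYD libraries, with exact 95% intervals and a separate scale in each panel. Ugt2 stood at 0.0100% in PDR and 0.00293% in SKYD, Sult1 at 0.00931% and 0.0246%, and Gstp at 0.0320% and 0.0191%.

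In the sulfotransferases a single gene set the total. The 21 Sult genes had 2609 reads in PDR, 0.0113% of the library (0.0109 to 0.0117), and 6473 in SKYD, 0.0255% (0.0248 to 0.0261). As a share of reads they were 2.25-fold (2.15 to 2.36) higher in SKYD. Sult1a1, which sulfates phenols and iodothyronines, held 2056 of these reads in PDR and 6171 in SKYD. Its FPKM was 58.1 in PDR and 164 in SKYD, and the difference was -1.48 (-1.55 to -1.41), or 2.82-fold (2.68 to 2.97) by FPKM. By FPKM it belonged with Gstp1, Gstm1 and Gsto1 to the 4 most abundant members in both libraries. Without Sult1a1 the other 20 Sult genes were 2.02-fold higher in PDR as a sum, so the direction of the superfamily turned on that gene. Most reads of this sum were on Sult2a8, with 376 in PDR and 163 in SKYD, and 12 of the 20 genes had none. By FPKM, 5 were higher in PDR, and Sult1e1, Sult4a1 and Sult2b1 were higher in SKYD. The median difference of the 3 Sult members tested was 0.53. It depended on the filter, at 0.20 over the 9 with reads and -1.48 at a mean FPKM of at least 5, where Sult1a1 alone was left.

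Sult2 enzymes sulfate steroids and bile acids. Sult2a8, an enzyme of bile acid sulfation in liver, had 376 reads and an FPKM of 4.87 in PDR, against 163 reads and 1.99 in SKYD. Its difference was 0.98 (0.78 to 1.17), short of 2-fold on the log2(FPKM + 1) scale. By FPKM its ratio of 2.45 (2.04 to 2.97) has both limits above 2. The other 7 Sult2a genes had no reads in either library. Some of these, such as Sult2a1, and Sult3a1 are known as female-predominant in mouse liver, and both Sult3a genes were also at 0 in these libraries of male mice. Sult2b1, the cholesterol sulfotransferase, had 14 reads in PDR and 24 in SKYD, which did not differ beyond counting error.

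Among the other Sult1 genes, Sult1d1, which acts on catecholamines, had 81 reads and an FPKM of 1.40 in PDR and 41 reads and 0.667 in SKYD. Its difference was 0.53 (0.26 to 0.78), and by FPKM its ratio was 2.10 (1.43 to 3.14). Sult1e1, the oestrogen sulfotransferase, was seen in SKYD alone, with 29 reads against 0. Set against 3 reads in PDR, Sult1e1 was 9.08-fold higher in SKYD, with an FPKM of 0.934 there. Like that of Ugt3a1, this fold leaves out the counting error of its own reads. Sult1b1, which sulfates thyroid hormones, had 12 reads in PDR and 2 in SKYD, an FPKM ratio of 6.38 (1.42 to 58.7). Sult4a1, a member best known from brain, had 0 reads in PDR and 25 in SKYD. Set against 3 reads in PDR it was 7.83-fold higher in SKYD, with the same limit. Sult5a1 had 42 reads in PDR and 16 in SKYD, and Sult6b1 had 28 and 2, with a ratio of 14.9 (3.76 to 129). Sult1c1, Sult1c2 and Sult6b2 had no reads. At these numbers of reads the ratios span a wide range and fix little beyond direction.

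The Gst genes were the most abundant of the 3 superfamilies, with 18892 reads in PDR, 0.0818% of the library (0.0807 to 0.0830), and 14754 in SKYD, 0.0580% (0.0571 to 0.0590). The fold was 1.41 (1.38 to 1.44), higher in PDR, and the median difference of the 19 members tested was 0.48. All but 1 of the 22 genes, Gstt4, had reads.

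Gstp1, of the pi class, was the most abundant member by FPKM in both libraries and by reads in PDR, while in SKYD Sult1a1 had more reads. It had 7253 reads and an FPKM of 408 in PDR, and 4748 reads and 251 in SKYD. The difference was 0.70 (0.65 to 0.75). Gstp3 had 111 reads and an FPKM of 6.67 in PDR and 80 reads and 4.51 in SKYD, a difference of 0.48 (0.11 to 0.84). Gstp2, a near copy beside Gstp1, had 16 reads and an FPKM of 0.885 in PDR and 27 reads and 1.40 in SKYD. Its interval, -0.82 to 0.15, held 0. Of its 100-base transcript windows, 41.6% also occur in Gstp1, and 23.3% occur in the processed pseudogene Gstp-ps. Gstp-ps is outside the rule and had 617 reads in PDR and 488 in SKYD, and reads of these copies cannot be told apart where their sequence is the same.

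The mu class, a cluster of 7 genes on chromosome 3, was led by Gstm1. Gstm1 had 2678 reads and an FPKM of 77.4 in PDR and 2219 reads and 60.3 in SKYD, with a difference of 0.36 (0.28 to 0.44). No other mu gene reached an FPKM of 8 in either library. Gstm4 had an FPKM of 7.53 from 302 reads in PDR and 5.16 from 220 reads in SKYD, a difference of 0.47 (0.25 to 0.69). Gstm3 had 105 reads and an FPKM of 3.41 in PDR and 54 reads and 1.65 in SKYD, a difference of 0.74 (0.40 to 1.06). Gstm6 and Gstm7 lay side by side in value as on the chromosome. Gstm6 had 118 reads and an FPKM of 2.53 in PDR and 48 reads and 0.966 in SKYD, a difference of 0.84 (0.56 to 1.11). Gstm7 had 91 reads and an FPKM of 2.42 in PDR and 37 reads and 0.925 in SKYD, a difference of 0.83 (0.50 to 1.13). By FPKM the ratios of Gstm3, Gstm6 and Gstm7 were 2.07, 2.62 and 2.62, with lower limits under 2. The remaining pair was higher in SKYD. Gstm5 had 126 reads and an FPKM of 4.20 in PDR and 229 reads and 7.17 in SKYD, a difference of -0.65 (-0.92 to -0.38). Gstm2 had 98 reads and an FPKM of 2.49 in PDR and 149 reads and 3.55 in SKYD, a difference of -0.38 (-0.66 to -0.10). Neighbouring mu genes thus lay on both sides of 0.

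Alpha class enzymes act on lipid peroxides and steroids and are abundant in liver. Gsta3 had 1400 reads and an FPKM of 13.7 in PDR and 661 reads and 6.09 in SKYD, a difference of 1.05 (0.94 to 1.17). Gsta2 had 116 reads and an FPKM of 4.20 in PDR and 21 reads and 0.714 in SKYD, a difference of 1.60 (1.24 to 1.91). Gsta1 had 12 reads in PDR and 1 in SKYD, and shares 80.6% of its windows with other genes, 64.7% with Gm3776 and 24.3% with Gsta2. Gsta4, known for conjugating the lipid aldehyde 4-hydroxynonenal, did not follow the class. It had 127 reads and an FPKM of 4.27 in PDR and 161 reads and 5.09 in SKYD, and its interval of -0.49 to 0.08 held 0.

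Theta class enzymes act on small halogenated compounds and peroxides. Gstt1 had 805 reads and an FPKM of 22.4 in PDR and 222 reads and 5.81 in SKYD, and its difference was 1.78 (1.59 to 1.97). On the log2(FPKM + 1) scale this was the largest of the tested Gst members, while by FPKM Gsta2 had the larger ratio, 5.88 against 3.86. Gstt2 had 1257 reads and an FPKM of 12.9 in PDR and 573 reads and 5.52 in SKYD, a difference of 1.09 (0.96 to 1.22). On the log2(FPKM + 1) scale the lower limits for Gstt2 and Gsta3 fall under 1, while by FPKM the ratios of 2.33 (2.11 to 2.58) and 2.25 (2.05 to 2.48) have both limits above 2. Gstt3 had 202 reads and an FPKM of 2.24 in PDR and 147 reads and 1.53 in SKYD, a difference of 0.36 (0.15 to 0.56). The 3 expressed theta genes thus had the same sign.

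The remaining classes have 1 or 2 genes. Gsto1, of the omega class that reduces dehydroascorbate with glutathione, had 3033 reads and an FPKM of 65.6 in PDR and 4095 reads and 83.3 in SKYD. Its difference was -0.34 (-0.41 to -0.27). Gsto2 had 28 and 24 reads, and its interval of -0.21 to 0.46 held 0. Gstk1, an enzyme of mitochondria and peroxisomes, had 415 reads and an FPKM of 12.0 in PDR and 638 reads and 17.4 in SKYD, a difference of -0.50 (-0.67 to -0.33). Gstz1 isomerizes maleylacetoacetate in the breakdown of tyrosine. It had 599 reads and an FPKM of 5.01 in PDR and 400 reads and 3.15 in SKYD, a difference of 0.54 (0.39 to 0.68). The hepatocyte markers Hpd and Tat, which act earlier in that pathway, had differences of 2.07 and 2.17.

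**Figure D4:**
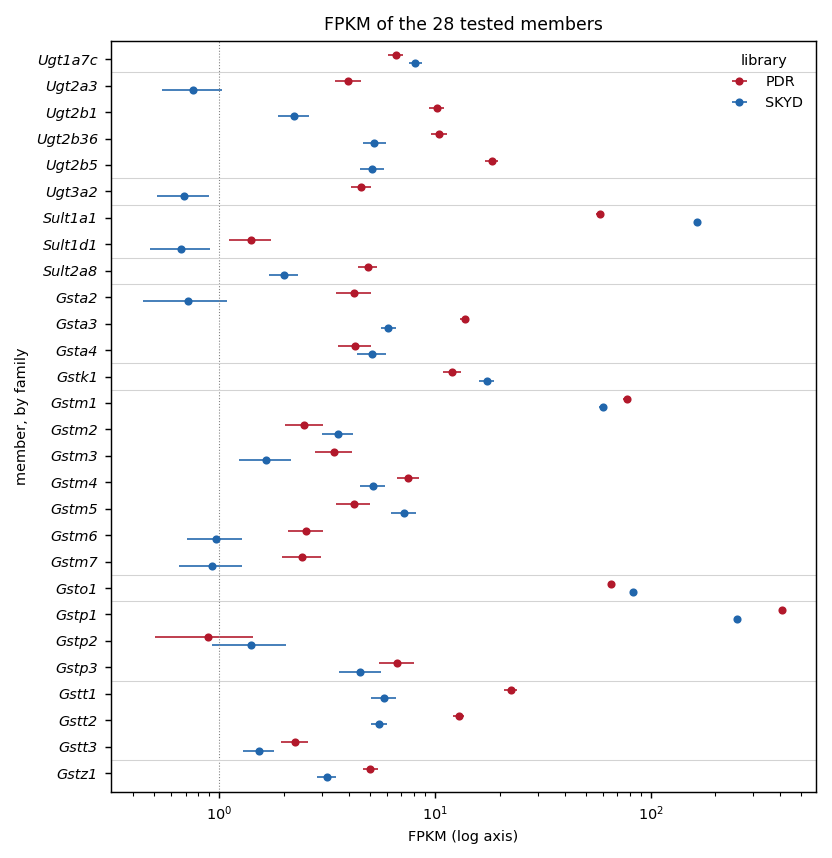
FPKM on a log axis of the 28 members in the PDR and SKYD libraries, ordered by family, with exact 95% intervals of the reads as error bars and a dotted line at an FPKM of 1. Sult1a1, Gstm1, Gsto1 and Gstp1 lie at 58.1 or above in both libraries, and the highest value of the other members is 22.4, of Gstt1 in PDR.

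Many members sit in clusters. On chromosome 5, between positions 86889767 and 87591594 (GRCm38), all 10 Ugt2 genes and 3 Sult1 genes (Sult1b1, Sult1d1 and Sult1e1) occupy 702 kilobases with 1 other protein-coding gene, Gm43638. The 8 Ugt2 genes with reads, Sult1b1 and Sult1d1 had the higher FPKM in PDR, and Sult1e1, at the end of this stretch, was seen in SKYD alone. Sult1a1 (ENSMUSG00000030711) lies elsewhere, at chr7:126672865-126676432 on the minus strand.

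Promoters were read from RefSeq (build GRCm38.p6) as the 250 bases before each start that RefSeq annotates, on the gene's strand. They were found for 57 of the 65 members, and motifs were searched on both strands. The antioxidant response element core TGACNNNGC was in 3 of these 57 members (5.26%), Gsta3, Gstm5 and Gstm7, against 11.5% of the 27025 genes in the table. No Ugt or Sult promoter held it. The xenobiotic response element core GCGTG was in 11 members (19.3%), against 30.9% of genes, and these were 5 of 20 Gst, 3 of 20 Ugt and 3 of 17 Sult genes. The HNF4 motif CAAAGTCCA was in 0 members, against 0.451%. Motif matches are descriptions of these letters, and no factor's binding was measured. The 5 sequences shown were chosen after values were seen. They are Gsta3 and Gsta2, both more than 2-fold higher in PDR, Gstm5, which had the higher FPKM in SKYD and holds both cores, Gstp1, the most abundant member by FPKM, and Sult1a1, more than 2-fold higher in SKYD. They lie at chr1:21240335-21240584 (plus strand), chr9:78347146-78347395 (minus strand), chr3:107895604-107895853 (plus strand), chr19:4037913-4038162 (minus strand) and chr7:126676419-126676668 (minus strand), and capitals mark motif matches.
Gsta3: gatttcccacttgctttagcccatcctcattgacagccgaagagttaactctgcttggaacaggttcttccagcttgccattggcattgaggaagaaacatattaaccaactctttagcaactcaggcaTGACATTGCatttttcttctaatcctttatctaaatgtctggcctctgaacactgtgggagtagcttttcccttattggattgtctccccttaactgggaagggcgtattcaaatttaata
Gsta2: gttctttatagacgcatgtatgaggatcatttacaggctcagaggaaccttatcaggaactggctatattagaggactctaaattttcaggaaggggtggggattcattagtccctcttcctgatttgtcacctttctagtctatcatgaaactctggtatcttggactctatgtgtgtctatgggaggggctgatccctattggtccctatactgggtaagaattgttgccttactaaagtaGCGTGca
Gstm5: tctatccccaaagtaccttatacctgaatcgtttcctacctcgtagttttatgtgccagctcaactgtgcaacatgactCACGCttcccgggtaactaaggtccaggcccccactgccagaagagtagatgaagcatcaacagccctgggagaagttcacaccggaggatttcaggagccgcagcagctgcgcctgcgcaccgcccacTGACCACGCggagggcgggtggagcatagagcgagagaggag
Gstp1: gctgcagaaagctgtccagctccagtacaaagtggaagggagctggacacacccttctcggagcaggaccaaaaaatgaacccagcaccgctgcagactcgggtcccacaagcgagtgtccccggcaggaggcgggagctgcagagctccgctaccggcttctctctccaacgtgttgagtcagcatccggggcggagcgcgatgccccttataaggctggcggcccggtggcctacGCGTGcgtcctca
Sult1a1: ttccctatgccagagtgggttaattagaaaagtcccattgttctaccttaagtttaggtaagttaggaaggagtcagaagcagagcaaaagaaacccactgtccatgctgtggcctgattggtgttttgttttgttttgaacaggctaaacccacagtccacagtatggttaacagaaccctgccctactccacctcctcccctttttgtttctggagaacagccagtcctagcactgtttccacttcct
In Gsta3 the antioxidant core lies from 121 to 113 bases before the start. In Gsta2 the xenobiotic core lies from 7 to 3 bases before the start, and in Gstp1 from 13 to 9. The whole Gsta2 window lies inside the gene as counted, chr9:78331018-78355788 on the minus strand. The RefSeq start used for Gsta2 is therefore not the start of the counted gene. Gstm5 holds the antioxidant core from 42 to 34 bases before the start, overlapped by a xenobiotic core from 38 to 34, and another xenobiotic core from 171 to 167. Sult1a1 holds none of the antioxidant, xenobiotic and HNF4 motifs in this window. Counts of other motifs are not given, among them the HNF1 letters GTTAAT. Those letters occur in the Sult1a1 sequence and, on the other strand, in the Gsta3 sequence, but not in the other sequences shown.

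Sequence shared with other genes limits how far single members can be read, since the submitters' counting could have dropped such reads. Of the 65 members, 33 share at least 1 window of 100 bases, the read length, with transcripts of another gene, and 18 share over 20% of theirs. Of the 28 members tested, 5 pass 20%: Gstp2 (46.9%), Ugt1a7c (51.6%), Gsta2 (28.4%), Gstp1 (25.1%) and Ugt2b5 (24.7%, with Ugt2b38). Ugt2b1, Ugt2b36, Ugt3a2, Sult2a8, Gsta3, Gstt1 and Gstt2 share none, and Sult1a1 shares 1.75%. With the 5 left out, a setting chosen after seeing the data, 6 of 23 members passed 2-fold toward PDR and 1 toward SKYD, where the shares of all genes were 7.36% and 6.92%. The use of strand in counting is not given in the sources used here. Exon overlap with a gene on either strand covered 13.9% of exon bases for Gstm5, 13.6% for Gstt3, 12.2% for Gstz1 and 4.05% for Sult1a1.

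**Figure D5:**
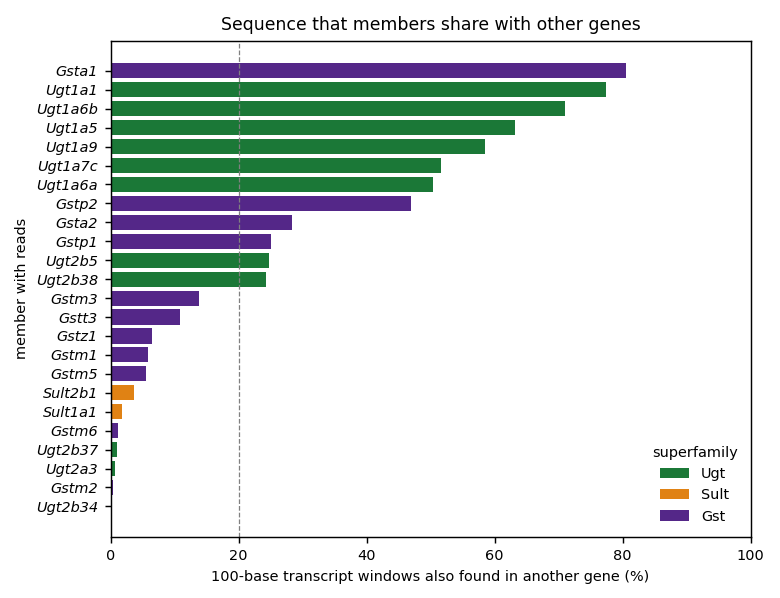
Percent of 100-base transcript windows that also occur in transcripts of another gene, for the 24 members that have reads and share any window; the dashed line marks 20% and colours the superfamily. The Ugt1a genes with reads share 50.4% or more of their windows, and Sult1a1 shares 1.75%.

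Of 15 genes of cofactor supply, 11 were tested, none of these was more than 2-fold apart, and their median difference was 0.14. Among those below a mean FPKM of 1, Ggt1, which cleaves extracellular glutathione, had 86 reads in PDR and 13 in SKYD, an FPKM ratio of 7.04 (3.91 to 13.8). Slc7a11, the cystine carrier, had 126 reads in PDR and 393 in SKYD, 2.93-fold (2.39 to 3.61) higher in SKYD by FPKM. Gsr, which regenerates glutathione, had the most reads, 4716 in PDR and 6885 in SKYD. Slc35b2, the Golgi carrier of PAPS, had 2307 and 1507 reads, and Ugp2, which makes UDP-glucose, had 1702 and 1299. Papss1, which makes PAPS, had an FPKM of 6.96 in PDR and 6.20 in SKYD. Ugdh, which makes UDP-glucuronic acid, had 2.95 and 3.25. For each donor the tested enzymes were within 2-fold. Of the tested genes that use these donors, the Ugt2 genes, Sult2a8 and Sult1d1 were higher in PDR, and Sult1a1 was higher in SKYD. The part of donor supply in these differences was not tested.

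Other conjugating enzymes showed both directions within 1 list. Of 26 genes, 21 were tested, 5 were more than 2-fold higher in PDR on the log2(FPKM + 1) scale, 1 was higher in SKYD, and the median was -0.09. Those higher in PDR were Inmt, an N-methyltransferase (difference 1.51), Glyat, which forms glycine conjugates (1.10), Baat, which joins bile acids to taurine or glycine (1.15), Ephx2, the soluble epoxide hydrolase (1.38), and Tpst1, which sulfates protein tyrosines in the Golgi (1.08). Ltc4s, which joins glutathione to leukotriene A4, was higher in SKYD, with 514 reads in PDR and 1231 in SKYD and a difference of -1.13. It belongs to the membrane-bound glutathione transferases, of which Mgst1 had the most reads of the list, 14925 in PDR and 11034 in SKYD. Mgst1, at an FPKM of 316 in PDR and 219 in SKYD, stood with Gstp1 among the most abundant glutathione transferases. Mgst2 and Mgst3 had the higher value in SKYD, short of 2-fold on that scale, with differences of -0.92 and -0.59, though by FPKM Mgst2 was 2.14-fold (1.87 to 2.45) higher in SKYD. By FPKM Hpgds, a prostaglandin D synthase that uses glutathione, was also past 2-fold, 2.74-fold (2.18 to 3.45) higher in SKYD. Acsm1, an acyl-CoA synthetase, was 2.76-fold (2.06 to 3.72) higher in PDR by FPKM. Alox5ap, a relative of these enzymes without transferase activity, had 5237 and 8280 reads.

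Removal, export and regulation showed no tested gene past 2-fold on the log2(FPKM + 1) scale, while by FPKM Abcc5, Slco1b2 and Cebpa passed it. Of 7 genes for removal of conjugates, 6 were in the table, 5 were tested and the median was -0.38. Gusb, the lysosomal enzyme that cleaves glucuronides, had 3233 reads in PDR and 4485 in SKYD. Of 12 export genes, 3 were tested, with a median of -0.29. Abcc5, a conjugate pump, had 209 reads in PDR and 623 in SKYD, and was 2.80-fold (2.39 to 3.29) higher in SKYD by FPKM. The liver uptake carrier Slco1b2 had 325 reads in PDR and 124 in SKYD, 2.79-fold (2.26 to 3.46) higher in PDR by FPKM. Of 20 regulators, 7 were tested, with a median of -0.30. Nfe2l2, the factor that acts through the antioxidant response element, had 2629 reads in PDR and 2305 in SKYD, a difference of 0.27 (0.19 to 0.35). Cebpa, a factor of liver and myeloid cells, had 188 reads in PDR and 456 in SKYD, 2.28-fold (1.92 to 2.72) higher in SKYD by FPKM. Below a mean FPKM of 1, both directions were seen. Slco1a1, another uptake carrier, had 148 reads in PDR and 20 in SKYD, an FPKM ratio of 7.87 (4.92 to 13.3), and Hnf4a had 64 and 6, a ratio of 11.4 (4.94 to 32.1). Ahr, the factor of the xenobiotic response element, had 52 reads in PDR and 170 in SKYD, 3.07-fold (2.24 to 4.28) higher in SKYD by FPKM.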

How the data were processed

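Each group was 1 pooled RNA-seq library of sorted macrophages. Per the labels' processing notes and the methods, the submitters aligned reads with TopHat2 2.0.9 and Bowtie2 2.0.6 and counted them with HTSeq 0.6.1. For the authors' own comparison these sources name DESeq 3.18.1 and, where groups lack replicates, edgeR. The authors deposited FPKM for 54532 genes. The notes name mm9, but 98.3% of the 54409 genes shared with a GENCODE annotation of GRCm38 have the same start and end, and so do 61 of the 65 members. No column of the authors' comparisons was in the table.

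Reads were recovered from the smallest steps of FPKM times length. The size behind FPKM was 1.02 times the recovered reads in PDR and 0.983 times in SKYD. Genes whose mean FPKM reached 1 are called tested, and were called past a 2-fold difference in log2(FPKM + 1). No statistical test was made. Named were the tested members, the member of each family with the most reads, other members with at least 10 reads, and of each list up to 3 genes with the most reads and those more than 2-fold apart. Apart from these, low members, Mgst2, Mgst3, Hpgds, Acsm1, Cebpa, Ggt1, Slc7a11, Slco1a1, Hnf4a, Ahr, Adgre1, Itgam, Fcgr1, Apoe, Hpd, Tat, Papss1, Ugdh and Gstp-ps were named after their values were seen. Members and lists were chosen with earlier results of these data known. Alternatives were pseudocounts, filters, TPM, centring, recovered reads and a 4-fold threshold. Shared windows of 100 bases and motifs were searched in GENCODE transcripts and RefSeq promoters. The steps were tested on simulated data. Software was scipy 1.17.1, pandas 2.3.3 and numpy 2.4.6 under Python 3.11.15, with figures from matplotlib 3.10.9.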

Additional observations from a re-analysis of the deposited data

How the results depend on the processing

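The median of all genes tested was -0.0035, so centring on it moved little and tests nothing. Rescaling to TPM gave 12 of 32 members higher in PDR with Sult1a1 again the 1 higher in SKYD (all genes 8.74% and 7.91%). A pseudocount of 0.1 gave 12 of 28 higher in PDR (all genes 10.2%), with medians of 0.84 over all members, 1.99 for Ugt and 0.97 for Sult. Without a filter on FPKM the medians were 0.67 for Ugt and 0.20 for Sult, and at a mean FPKM of at least 0.1 they were 0.81 and 0.20. At a mean FPKM of at least 5, 5 of 15 members were higher in PDR (all genes 8.06%), the Ugt median was 1.27, and the Sult median was -1.48, since Sult1a1 was the 1 Sult gene left.

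On shares of recovered reads, 24 of 44 members passed 2-fold toward PDR and 4 toward SKYD (all genes 15.5% and 17.3%), with medians of 1.10 over all members, 2.09 for Ugt and 1.11 for Sult. On log2(FPKM + 1), 0 of 28 members passed 4-fold in each direction (all genes 1.87% and 2.08%), and with a pseudocount of 0.1, chosen after seeing the data, 4 passed it toward PDR and 0 toward SKYD (all genes 3.80% and 3.74%). With summed FPKM the fold was 2.56 for Ugt and 0.39 for Sult. Without the member with the most reads it was 3.71 for Ugt (without Ugt1a7c), 2.02 for Sult (without Sult1a1) and 1.28 for Gst (without Gstp1). Outside immunoglobulin, T cell receptor and haemoglobin reads it was 0.465 for Sult and 1.48 for Gst. Without members that share over 20% of their windows, chosen after seeing the data, it was 3.78 for Ugt and 1.27 for Gst. The cause of these shifts was not tested. With TPM, 28 of the 28 members tested kept their sign. With 1 library a group, spread between mice is unknown, and members with few reads have wide counting intervals. No paired analysis was possible because each group had 1 library.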

Other observations

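The libraries differed in genes of other cell types, whose part in the members' differences was not tested. B cell markers were higher in PDR, 6 of 6 tested, with a median of 2.42, and T cell markers were higher in SKYD, 7 of 7 tested, with a median of -2.41. Neutrophil markers had 4 of 10 higher in PDR, namely Elane, Mpo, Ltf and Ly6g, and a median of 0.93. Erythroid markers had 0 of 6 past 2-fold and a median of -0.29, and platelet markers had 1 of 4, Pf4, higher in SKYD and a median of 0.27.

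Epithelial and connective tissue lists were thin. Of 13 gut or kidney epithelium markers 5 were tested, with Krt8 and Krt19 higher in SKYD, and Krt20, Muc2, Umod, Slc12a1 and Lrp2 at 0 in both libraries. Fibroblast markers had 2 of 2, Dcn and Lum, higher in SKYD. Smooth muscle markers had 1 of 2, Myl9, higher in PDR, with Myh11, Tagln and Cnn1 at 0 in both. Mast cell markers had Cma1 higher in PDR and Cpa3 higher in SKYD of 3 tested. Endothelial markers had 0 of 1 past 2-fold, and no adipocyte marker was tested, with 38 reads on that list in PDR and 93 in SKYD.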
